A study of Mus musculus with 33 samples.

Results

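Ythdf2 is a single gene, chosen by its row in each of the 3 pairs of count and TPM tables, 1 of 26621 gene symbols measured. TPM is a transcript level scaled for transcript length and sequencing depth. The study measured RNA in neural stem cells grown from the hippocampus of mice at postnatal day 0.5, in medium with the growth factors bFGF and EGF. Libraries labelled cKO (genotype Nestin-cKO for Ythdf2, a conditional knockout) and libraries labelled WT (Nestin-WT) were made after 0, 2 and 4 h in 5 µM actinomycin D, which blocks transcription, with 3 of each label at each time. An m6A antibody pull-down was made beside an input (3 each) from untreated WT cells. Untreated WT cells also gave the YTHDF2 series, made of an antibody pull-down of YTHDF2, a control pull-down with IgG and an input, again with 3 libraries of each. The label names Nestin but not the exons removed, and the sources used here do not say whether replicates came from separate animals, so p-values measure the spread between these libraries.

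YTHDF2 is a cytoplasmic protein whose YTH domain binds N6-methyladenosine (m6A) in RNA. It shortens the life of bound transcripts, by recruiting the CCR4-NOT deadenylase and, through the adaptor RIDA (HRSP12), the endonuclease RNase P/MRP. Its closest relatives YTHDF1 and YTHDF3 carry the same domain and can bind the same sites. In the developing mouse brain, loss of YTHDF2 is known to slow the clearance of methylated transcripts in neural progenitors.

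The Ythdf2 gene lies on the minus strand of mouse chromosome 4, chr4:132184916-132212256 in GRCm38.p6, and RefSeq annotates it as protein coding. The stretch of 250 bases before its annotated start, chr4:132212257-132212506 on the minus strand, is shown as the start region of the transcript followed here, from RefSeq (GRCm38.p6), with each CG in capitals.
Ythdf2 upstream: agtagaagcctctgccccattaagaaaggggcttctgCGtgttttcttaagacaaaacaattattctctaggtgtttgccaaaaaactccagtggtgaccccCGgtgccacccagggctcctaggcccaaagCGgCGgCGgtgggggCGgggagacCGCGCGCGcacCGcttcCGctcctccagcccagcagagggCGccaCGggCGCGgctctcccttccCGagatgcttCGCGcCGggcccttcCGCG
It holds 22 CG pairs, mostly in its second part, and 64% of its bases are G or C. Of 32851 such windows of annotated mouse starts, 14.8% hold at least as many CG pairs, and the median is 6. Searched on both strands, GGGCGG occurs once here and at least once in 32.7% of windows, while neither CCAAT nor TATAAA occurs here (33.8% and 12.4% of windows hold them). These letters describe the window and were not tied to any measurement.

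Total counts were 10257329 to 21353383 per RNA-seq library, 12892222 to 28334300 in the m6A series and 8419106 to 23097887 in the YTHDF2 series, and Ythdf2 was well counted throughout, with 633 to 37639 reads. Summed TPM of 13 neural stem cell markers was 10136 to 17249 in libraries labelled cKO at 0 h and 24596 to 26167 in those labelled WT, and every marker was detected in both. The 7 fibroblast and meningeal markers summed to 12.9 to 49.6 TPM in libraries labelled cKO at 0 h and 0.658 to 1.22 TPM in those labelled WT. Neuron markers summed to 183 to 198 TPM in libraries labelled cKO at 0 h and 486 to 564 TPM in those labelled WT, oligodendrocyte lineage markers to 69.4 to 144 TPM (labelled cKO) and 219 to 279 TPM (labelled WT), and astrocyte markers to 94.5 to 197 TPM (labelled cKO) and 195 to 290 TPM (labelled WT). Microglial and endothelial markers were near 0, with sums of at most 3.10 TPM in libraries labelled cKO at 0 h and at most 1.44 TPM in those labelled WT, and Tmem119, C1qa, Cdh5 and Cldn5 were at 0 in both. At 0 h, where 17.6% of all genes were called, 6 of 6 fibroblast and meningeal markers tested were higher in libraries labelled cKO. With so little in WT libraries, these markers could pass the low-count filter largely through the libraries labelled cKO. Their count is thus no separate result beside the sums above. Of the stem cell markers 1 of 13 was higher and 4 were lower, and of the neuron markers 1 of 7 was higher and 4 were lower. No marker was higher and 4 of 7 were lower in the oligodendrocyte lineage list, 2 of 5 were lower in the astrocyte list, and no microglial or endothelial marker was called (1 and 3 tested). In bulk RNA, fewer cells of a type and less RNA per cell cannot be told apart.

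Ythdf2 went against its label. Its transcript was higher, not lower, in the libraries labelled cKO at all 3 times, by 6.70-fold at 0 h, 16.0-fold at 2 h and 19.9-fold at 4 h, so they are called libraries labelled cKO throughout. The counts are summed over the gene and do not show which exons were read, so they do not say whether an exon is missing. Levels below are normalized CPM, counts scaled to a common library size after TMM adjustment.

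At 0 h, the libraries labelled cKO held 3117, 1035 and 736 normalized CPM of Ythdf2 (replicates 1, 2 and 3), against 219, 253 and 258 in those labelled WT. The groups did not overlap: the lowest library labelled cKO stood well above the highest WT library, and replicate 1 labelled cKO stood far above its own group. The means were 1629 ± 1297 in libraries labelled cKO and 243 ± 21.4 in libraries labelled WT (SD, n = 3 each). The log2 difference, cKO over WT, was 2.74 (SE 0.37, 95% interval 1.96 to 3.53, edgeR quasi-likelihood test with Benjamini-Hochberg adjustment over all genes, adjusted p = 0.00027). In that comparison 17.6% of the 14029 genes tested passed an adjusted p of 0.05, and 193 genes had a larger log2 difference than Ythdf2. Without replicate 1 labelled cKO at 0 h the difference was 1.86 (adjusted p = 3.1e-05).

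At 2 h, the libraries labelled cKO held 1115, 1307 and 1167 normalized CPM, against 69.3, 66.6 and 88.0 in those labelled WT. At 4 h, they held 1418, 1362 and 1433 in libraries labelled cKO, against 63.0, 60.4 and 88.5 in libraries labelled WT. At both times the groups lay far apart, and the libraries labelled cKO were close together. Their coefficient of variation was 8.30% at 2 h and 2.64% at 4 h. In libraries labelled WT it was 15.7% and 22.0%, with replicate 3 the highest at both times. The log2 difference was 4.00 at 2 h (SE 0.39, adjusted p = 9.18e-06) and 4.31 at 4 h (SE 0.40, adjusted p = 5.6e-06), and only 82 and 80 of the tested genes had a larger one. Of all genes tested, 17.1% were called at 2 h and 20.2% at 4 h.

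**Figure D1:**
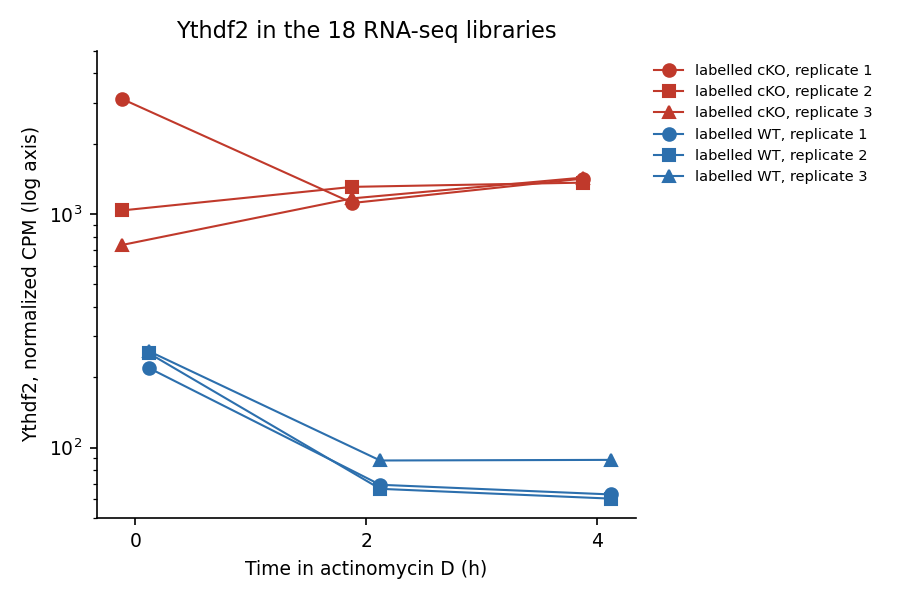
Normalized CPM of Ythdf2 (log axis) against hours in actinomycin D, 1 point per library, with lines joining the same replicate number of a label. The 9 libraries labelled cKO lie between 736 and 3117 and all stand above the 9 libraries labelled WT, which lie between 60.4 and 258.

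In units that allow genes to be ranked within a library, Ythdf2 stood at 1404, 472 and 373 TPM in libraries labelled cKO at 0 h, against 111, 126 and 124 TPM in libraries labelled WT. It was thus among the most abundant transcripts of the libraries labelled cKO, where 120 to 518 genes had a higher TPM, against 1414 to 1572 genes in the WT libraries. By 4 h, 373 to 417 genes had a higher TPM in libraries labelled cKO, against 2940 to 3613 in libraries labelled WT.

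The 3 libraries labelled cKO at 0 h differed among themselves more than any other group did for Ythdf2, with a coefficient of variation of 79.6%, against 8.80% in WT at 0 h. Replicate 1 was 1.84 higher on the log2 scale than the mean of the other two, and 252 of 14029 genes were further above. Over all tested genes, 10.3% in replicate 1 were over 1 log2 unit above the mean of the other 2 libraries, and 14.3% over 1 log2 unit below. By the same measure the shares were 5.55% above and 4.31% below in replicate 2. In replicate 3 they were 9.54% above and 8.13% below, so a wide spread was not particular to replicate 1. The fibroblast and meningeal marker sum was 12.9, 26.7 and 49.6 TPM in replicates 1, 2 and 3 labelled cKO at 0 h. In libraries labelled cKO it ranged from 13.6 to 44.1 TPM at 2 h and from 17.0 to 37.8 TPM at 4 h. Ythdf2 was close to even across these libraries at 2 and 4 h. The part of cell make-up in the Ythdf2 difference between labels was not tested. Marker sums and labels went together in all RNA-seq libraries, so the parts of the 2 cannot be told apart.

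In the WT libraries, Ythdf2 fell within 2 h of actinomycin D, and no further change was called by 4 h. The level was 219, 253 and 258 normalized CPM at 0 h, 69.3, 66.6 and 88.0 at 2 h and 63.0, 60.4 and 88.5 at 4 h, so every library at 2 and 4 h lay below every library at 0 h, and the 2 h and 4 h libraries overlapped. At 2 h against 0 h the log2 change was -1.70 (SE 0.36, adjusted p = 0.00298), with 17.4% of all genes called. At 4 h against 0 h it was -1.78 (SE 0.36, adjusted p = 0.000841), with 39.9% of all genes called and 1745 of 14029 genes lower. Between 2 and 4 h the change was -0.08 (SE 0.35, 95% interval -0.82 to 0.66, adjusted p = 0.954), a step in which 2.35% of genes were called. By replicate number, Ythdf2 at 4 h was 28.8%, 23.9% and 34.3% of its 0 h level. Because transcription is blocked everywhere, these levels are relative to the other transcripts of a library and not amounts per cell.

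In the libraries labelled cKO, no change of Ythdf2 with time passed the test. The log2 change was -0.45 at 2 h against 0 h (SE 0.35, adjusted p = 0.45, with 12.1% of all genes called). It was 0.23 at 4 h against 2 h (SE 0.35, adjusted p = 0.898, 0.791% called) and -0.21 at 4 h against 0 h (SE 0.35, 95% interval -0.95 to 0.52, adjusted p = 0.68, 30.1% called). The replicates moved in different directions: at 4 h Ythdf2 was 45.5% of its 0 h level in replicate 1, 132% in replicate 2 and 195% in replicate 3. Without replicate 1 at 0 h, the change at 4 h against 0 h turned to a rise of 0.67 (adjusted p = 0.0172), and that at 2 h against 0 h turned to 0.44 (adjusted p = 0.181). Scaled to ribosomal protein genes in place of TMM, the change at 4 h against 0 h was -0.88 (adjusted p = 0.0371). That scaling moved all genes: their median was -0.65, with 32 genes called higher and 5489 lower, against a median of 0.08 with TMM. Much of the -0.88 is thus shared with the typical gene. The direction of Ythdf2 over time in libraries labelled cKO thus rests on 1 library. Its call at 4 h rests on that library and on the scaling, which gave calls in opposite directions.

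Whether Ythdf2 changed differently with time under the 2 labels was tested directly as the log2 change in libraries labelled cKO minus that in libraries labelled WT. For 0 to 2 h this difference was 1.26 (SE 0.49, unadjusted p = 0.0207, adjusted p = 1 in the edgeR quasi-likelihood fit). No gene passed in that comparison (0% of 14029), 575 had an unadjusted p under 0.05, and DESeq2 called 3 higher and 5 lower. For 0 to 4 h it was 1.57 (SE 0.50, unadjusted p = 0.00557, adjusted p = 0.292), where 0.0214% of genes passed. With the culture, the replicate number within a label, as a block, the 0 to 4 h difference was 1.79 (edgeR adjusted p = 0.0495). Without replicate 1 labelled cKO at 0 h the differences were 2.14 (adjusted p = 0.00472) and 2.45 (adjusted p = 0.000831). With all libraries in and no block, a different time course of Ythdf2 was thus not called. The fit without a block leaves out the pairing of libraries across times. With the culture block the 0 to 4 h difference was called, close to the threshold.

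**Figure D2:**
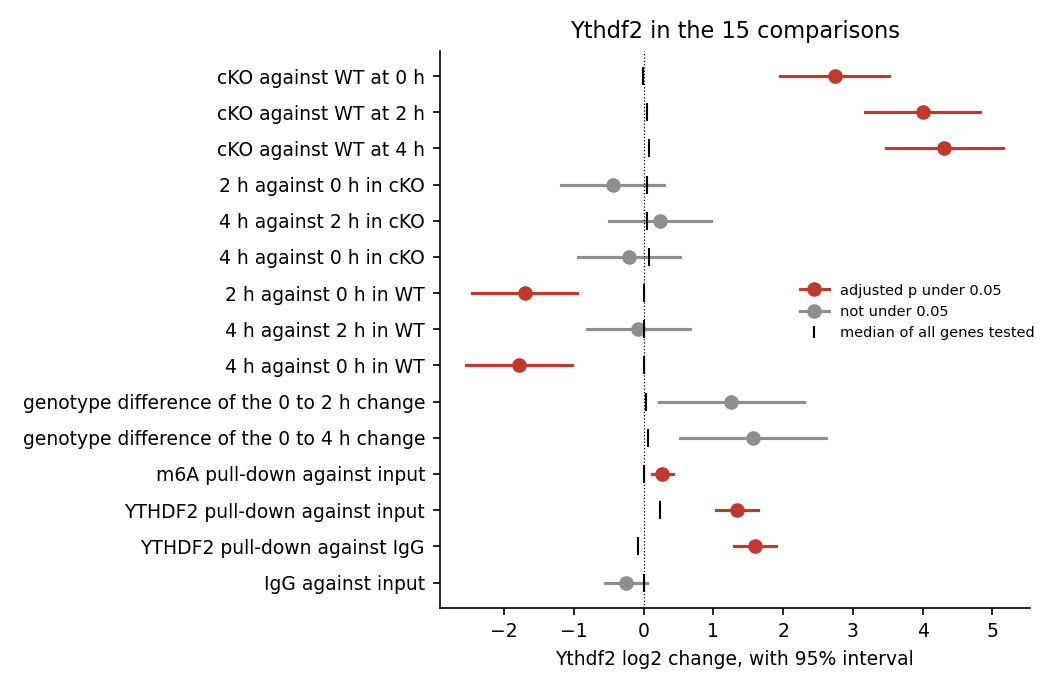
Log2 change of Ythdf2 in each of 15 comparisons, with its 95% interval (line), against the median of all genes tested (tick). The differences between libraries labelled cKO and WT, 2.74 to 4.31, lie furthest from the tick, and the 3 changes with time in libraries labelled cKO have intervals that cross 0.

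The relatives of Ythdf2 showed much smaller differences between labels. None of 4 (Ythdf1, Ythdf3 and the more distant readers Ythdc1, which is nuclear, and Ythdc2, an RNA helicase) was called at 0 h, with a median log2 difference of -0.28 against -0.01 for all genes tested. Ythdf1 was the single relative called later, higher by 1.05 at 2 h (SE 0.32, adjusted p = 0.0324) and by 1.50 at 4 h (SE 0.33, adjusted p = 0.00621) in libraries labelled cKO. It held 8.47, 7.04 and 8.89 normalized CPM in libraries labelled cKO at 4 h, against 1.63, 3.15 and 3.88 in libraries labelled WT, and these groups did not overlap. Ythdf1 is a close copy of Ythdf2 in its YTH domain, and any part that shared reads play in its count was not tested. Its 2 h call was lost in 7 of 17 alternatives.

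Per length, Ythdf2 was the main member of the Ythdf1 to Ythdf3 group in every library. It made up 93.2% ± 1.89 of their summed TPM in libraries labelled cKO at 0 h and 73.1% ± 2.51 in libraries labelled WT (SD, n = 3 each). At 2 h the shares were 95.6% ± 0.676 in libraries labelled cKO and 61.8% ± 2.53 in libraries labelled WT. At 4 h they were 97.3% ± 0.413 in libraries labelled cKO and 68.9% ± 2.58 in libraries labelled WT. The shares did not overlap between labels at any time.

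With time in actinomycin D, all 4 relatives fell in both labels by 4 h, a comparison in which 30.1% of all genes were called in libraries labelled cKO and 39.9% in libraries labelled WT. At 4 h against 0 h, the changes in libraries labelled cKO were -1.62 for Ythdf1, -1.25 for Ythdf3, -0.84 for Ythdc1 and -1.73 for Ythdc2, with adjusted p from 0.000442 to 0.016. In libraries labelled WT they were -2.59 for Ythdf1, -1.26 for Ythdf3, -1.37 for Ythdc1 and -2.17 for Ythdc2, with adjusted p from 1.42e-05 to 0.000871. At 4 h against 0 h Ythdf2 was also lower in the WT libraries, while in libraries labelled cKO its own change did not pass. From 2 to 4 h in WT libraries Ythdf2 changed by -0.08. The relatives changed by -1.16 (Ythdf1), -0.43 (Ythdf3), -0.57 (Ythdc1) and -1.12 (Ythdc2). None of these was called, in a step where 2.35% of all genes were, and the difference in course was not tested. The replicate 1 library labelled cKO at 0 h, highest for Ythdf2, was also highest for all 4 relatives among the libraries labelled cKO at 0 h. Ythdf3 for example held 137 normalized CPM there, against 69.5 and 62.3 in the other two. Without that library the changes at 4 h against 0 h in libraries labelled cKO were -1.10 for Ythdf1, -0.81 for Ythdf3, -0.50 for Ythdc1 and -1.24 for Ythdc2, and that of Ythdc1 was no longer called (adjusted p = 0.107). The Ythdc1 call was also lost without replicate 2 labelled cKO at 4 h (adjusted p = 0.0679).

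**Figure D3:**
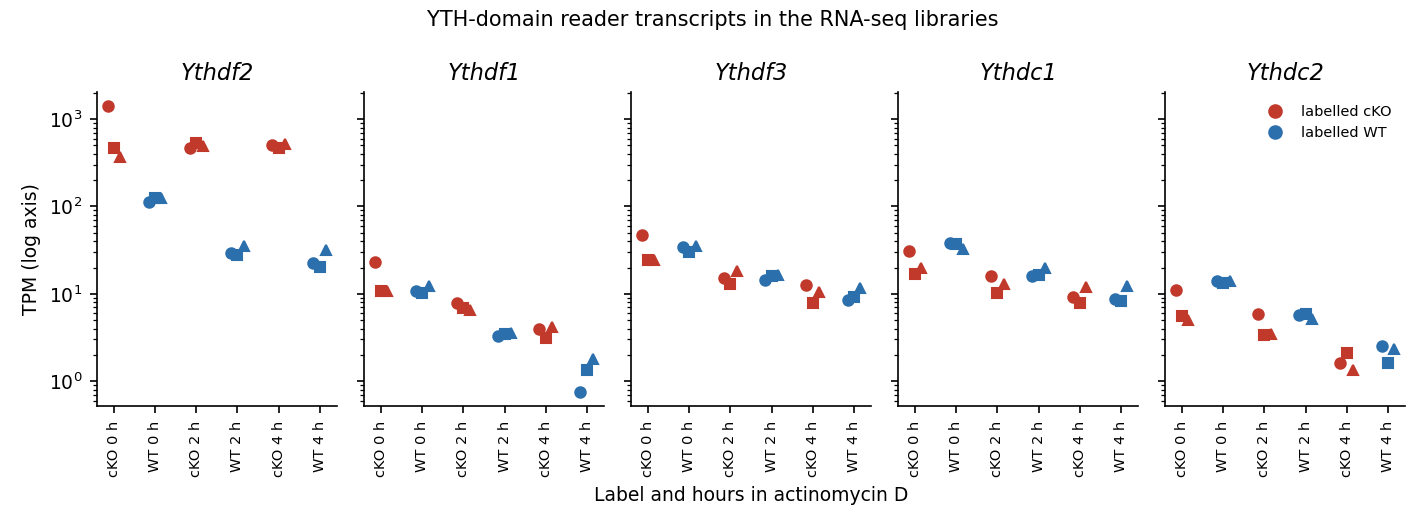
TPM (log axis) of Ythdf2 and its 4 relatives in each RNA-seq library, with circles, squares and triangles for replicates 1, 2 and 3, by label and hours in actinomycin D. Ythdf2 is the one panel in which red points (labelled cKO) stay well above blue points (labelled WT) at each time.

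The machinery around Ythdf2 was read against the background at 0 h, where 17.6% of all genes were called. Of 9 m6A writers, none was higher and 2 were lower in libraries labelled cKO: Cbll1 (-1.04, adjusted p = 0.0182), a subunit of the methyltransferase's regulatory part, and Mettl3 (-0.99, adjusted p = 0.0208), its catalytic subunit. The 2 erasers and the 7 other readers gave no call. Of 11 CCR4-NOT genes, which YTHDF2 recruits, Cnot11 (row D1Bwg0212e) was higher (1.29, adjusted p = 0.0178), and 3 were lower, among them Cnot4 (-0.81, adjusted p = 0.0131) and Cnot2 (-0.58, adjusted p = 0.0382). Of the 12 genes of the RNase P/MRP route, Rpp25 was not tested and none of the other 11 was called. Leaving out 1 library lost the calls on Mettl3 and Cnot2 in 5 of 6 fits each (adjusted p up to 0.077 and 0.105), on Cnot11 in 3 of 6 (up to 0.0831) and on Cbll1 in 2 of 6 (up to 0.0638). Median log2 differences were -0.41 for writers, -0.31 for CCR4-NOT and -0.03 for RNase P/MRP, against -0.01 for all genes.

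At 2 and 4 h, where 17.1% and 20.2% of all genes were called, no writer and no eraser passed. Of the other readers, Igf2bp2 was higher (2.09, adjusted p = 0.0457) and Hnrnpc lower (-0.55, adjusted p = 0.0375) at 2 h, and none was called at 4 h. Cnot4 was lower at 2 h (-0.72, adjusted p = 0.0224) and 4 h (-0.68, adjusted p = 0.0248), Cnot7, a deadenylase, was lower at 2 h (-0.55, adjusted p = 0.0273), and Cnot11 was higher at 4 h (1.59, adjusted p = 0.00895). Pop7, a subunit of RNase P/MRP, was higher at 2 h (1.29, adjusted p = 0.00379) and 4 h (1.82, adjusted p = 0.00034). Leaving out 1 library lost the 2 h calls on Igf2bp2, Hnrnpc, Cnot7 and Cnot4 in 5 of 6 fits each (adjusted p up to 0.201, 0.182, 0.128 and 0.107), and the 4 h calls on Cnot4 in 4 of 6 and on Cnot11 in 1 of 6 (up to 0.0862 and 0.0542). The calls on Pop7 held in all 6 fits at each time. Each of these differences is smaller than that of Ythdf2 at the same time.

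Of the nearest 4 tested genes on each side of Ythdf2 on chromosome 4, none passed between labels at 0 h, and none was called higher at any time. Over all genes, 17.6% were called in either direction at 0 h, 17.1% at 2 h and 20.2% at 4 h. Called higher were 1082, 1195 and 1549 of 14029 genes at 0, 2 and 4 h. A list this short with no higher call does not stand apart from that background. The neighbours Gm13215 and Gm13253 were very low, with group means of at most 0.660 and 0.872 normalized CPM. The closest coding neighbour, Gmeb1 (a DNA-binding transcription modulator, 8769 bp away), differed by -0.48 at 0 h (SE 0.23, adjusted p = 0.136), -0.13 at 2 h and 0.07 at 4 h. Epb4.1, which encodes a membrane skeleton protein and lies 109570 bp away, was lower in libraries labelled cKO at 2 h (-1.19, adjusted p = 0.0238) and 4 h (-1.25, adjusted p = 0.017), calls lost in 5 of 6 and 1 of 6 fits that left out 1 library (adjusted p up to 0.115 and 0.0848). Rab42-ps, 88182 bp away, had a larger value than Ythdf2 at 0 h, 3.16 (SE 1.15, adjusted p = 0.0646), but from very low levels of 0.697 ± 0.640 normalized CPM in libraries labelled cKO and 0.0759 ± 0.0855 in libraries labelled WT (SD, n = 3 each).

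**Figure D4:**
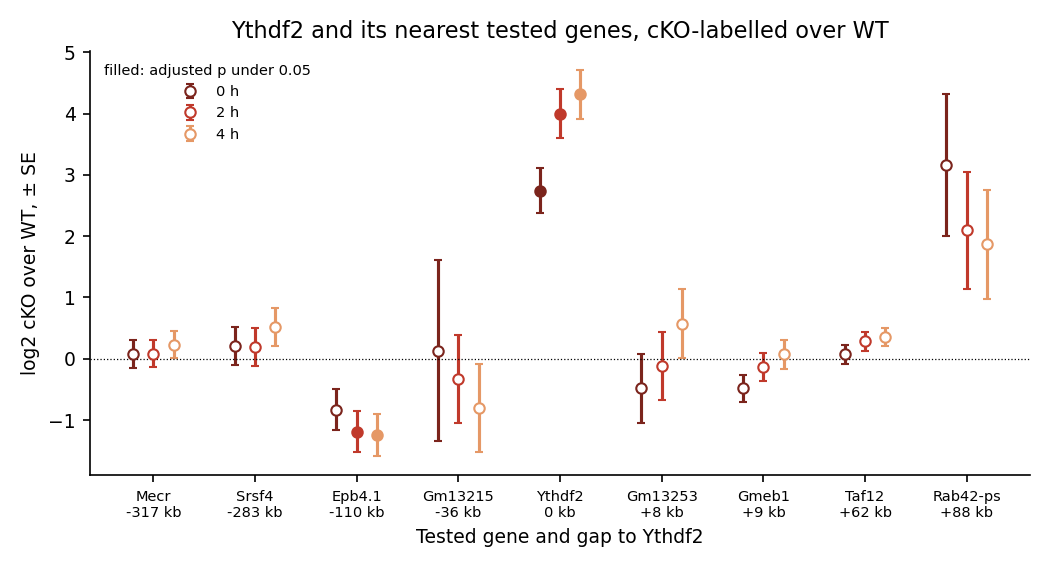
Log2 difference, libraries labelled cKO over WT, for Ythdf2 and the nearest 4 tested genes on each side in their order on the chromosome, at 0, 2 and 4 h, with SE bars. Filled points have an adjusted p under 0.05: Ythdf2 at each time, and Epb4.1, on the other side of 0, at 2 and 4 h.

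Across the 18 RNA-seq libraries, the genes whose log2 CPM ran most like that of Ythdf2, among 5927 genes with a mean of at least 4, were Tomm5 (Pearson r = 0.944), Tm4sf1 (0.928), Pcbp1 (0.914), Jag1 (0.913), Ndufaf1 (0.905) and Eif4e2 (0.905). Bnip3 (-0.972), Dcx (-0.962) and Pla2g7 (-0.951) ran most against it. These values describe the same 18 libraries and share their scaling. The genes were picked by their likeness to Ythdf2, which differs between labels in these libraries. Label differences among them thus follow in part from the choice and are no separate result. Tomm5, a subunit of the mitochondrial import pore, was most alike in pattern yet differed little in size: 186 ± 38.0 normalized CPM in libraries labelled cKO at 0 h and 157 ± 13.3 in libraries labelled WT (SD, n = 3 each, log2 difference 0.25, adjusted p = 0.259). Jag1, a Notch ligand, differed by 2.59 at 0 h (adjusted p = 4.82e-05), with 116 ± 5.27 normalized CPM in libraries labelled cKO and 19.2 ± 0.722 in libraries labelled WT (SD, n = 3 each). Dcx, a microtubule protein of young neurons, differed by -2.63 (adjusted p = 3.89e-06) and Bnip3, a mitochondrial death and mitophagy factor, by -1.99 (adjusted p = 1.29e-05). Within groups, after group means were taken off, r with Ythdf2 was 0.76 for Tomm5, 0.67 for Pcbp1, 0.60 for Eif4e2 and 0.47 for Ndufaf1. It was 0.14 for Tm4sf1 and -0.01 for Jag1. Of the genes that ran against Ythdf2, Bnip3 had -0.78 within groups, Dcx had -0.16, and Pla2g7 turned to 0.42.

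In untreated WT cells, the Ythdf2 transcript was slightly more abundant in the m6A pull-down than in its input. It held 203, 189 and 202 normalized CPM in the m6A libraries, against 166, 161 and 166 in the inputs. The groups did not overlap, and their means were 198 ± 7.91 in m6A libraries and 164 ± 2.70 in inputs (SD, n = 3 each). The log2 difference was 0.27 (SE 0.067, 95% interval 0.12 to 0.42, edgeR adjusted p = 0.0213), where 20.3% of 14167 genes were called in either direction and 2874 genes had a larger value. The call was lost when any of 4 of the 6 libraries was left out: m6A replicate 1 (adjusted p = 0.0696), m6A replicate 3 (0.0863), input replicate 2 (0.0582) or input replicate 3 (0.0702). Its size also depends on the scale: it was 1.66 with ribosomal protein genes as the reference, when the median of all genes was 1.40. On log2(TPM + 1) it was 0.74, when the median of all genes was 0.25.

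No relative was called in the m6A pull-down (0 of 4, edgeR), where 20.3% of all genes were. Ythdf3 had 0.20 (SE 0.078, adjusted p = 0.107), Ythdc2 had -0.52 (adjusted p = 0.0643), and the list's median was 0.09, against 0.01 for all genes. Ythdf2 made up 72.8% ± 0.504 of the TPM of Ythdf1 to Ythdf3 in m6A libraries and 71.7% ± 1.67 in inputs (SD, n = 3 each). Among the writers, Virma (row 1110037F02Rik), a scaffold of the methyltransferase complex, was higher in the m6A pull-down (0.32, adjusted p = 0.0218), close to Ythdf2 in size, and its call was lost in 4 of 6 fits that left out 1 library (adjusted p up to 0.0904). Hnrnpc (-0.78, adjusted p = 5.56e-05), an RNA-binding protein, and the RNase P subunits Rpp30 (-0.85, adjusted p = 0.000155) and Rpp21 (-0.74, adjusted p = 0.00427) were lower. With ribosomal protein genes as the reference, Hnrnpc, Rpp30 and Rpp21 turned positive.

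The YTHDF2 antibody pull-down held more of the Ythdf2 transcript than IgG or input did, with the groups taken from the sample descriptions, whose names the count columns carry. The level was 212, 249 and 232 normalized CPM in the YTHDF2 libraries, against 75.2, 76.3 and 77.7 in the IgG libraries and 92.3, 95.8 and 85.8 in the inputs. Every YTHDF2 library stood above every IgG and input library, and the IgG libraries lay just under the inputs. The means were 231 ± 18.7 in YTHDF2 libraries, 76.4 ± 1.27 in IgG libraries and 91.3 ± 5.10 in inputs (SD, n = 3 each).

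Against IgG, the log2 difference was 1.60 (SE 0.14, 95% interval 1.29 to 1.90, adjusted p = 1.67e-05), with 14.6% of 14255 genes called and 748 genes with a larger value. Against input it was 1.34 (SE 0.14, 95% interval 1.03 to 1.64, adjusted p = 3.3e-05), with 48.1% of genes called and a median of 0.23 over all genes. For IgG against input it was -0.26 (SE 0.14, 95% interval -0.56 to 0.04, adjusted p = 0.165), with 37.1% of genes called. The same 3 YTHDF2 libraries enter both of the first comparisons. The sample titles name the YTHDF2 and input libraries the other way round: under the titles, Ythdf2 would be lower in the pull-down than in input (-1.34) and not called against IgG (0.26, adjusted p = 0.165).

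**Figure D5:**
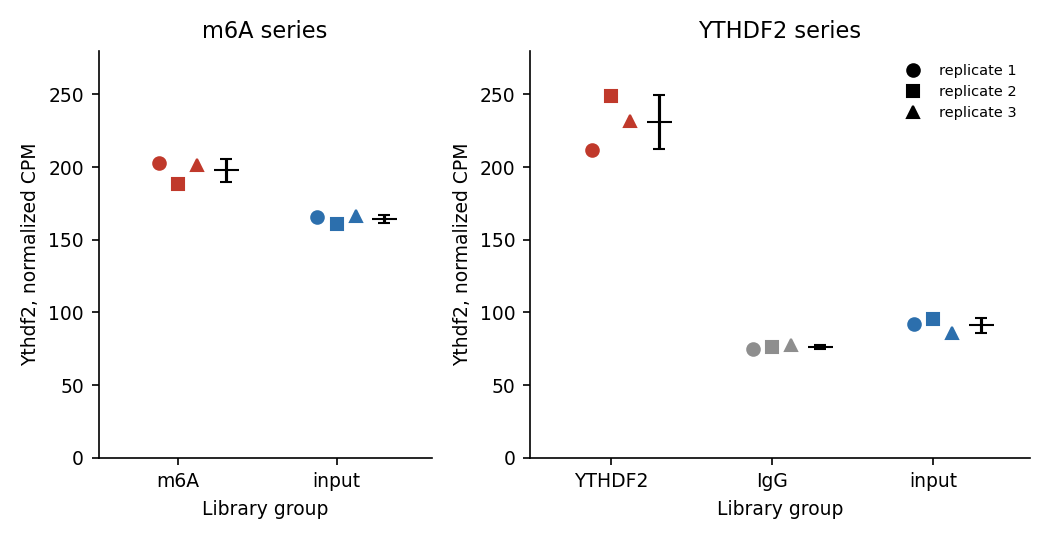
Normalized CPM of Ythdf2 in each library of the m6A and YTHDF2 series, with the mean and SD of each group beside the points. The m6A libraries lie just above their inputs (189 to 203 against 161 to 166), and the YTHDF2 libraries (212 to 249) well above IgG (75.2 to 77.7) and input (85.8 to 95.8).

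The relatives gave smaller values over IgG, and their difference from Ythdf2 was not tested. Against IgG none of 4 passed in the edgeR fit (Ythdf1 0.71, adjusted p = 0.0867, Ythdf3 0.56, adjusted p = 0.082, Ythdc1 -0.18 and Ythdc2 -0.19), with a list median of 0.19 against -0.08 for all genes. That fit leaves out the pairing of libraries, and these values were not refitted with a block. Against input all 4 were higher, by 0.82 for Ythdf1, 0.57 for Ythdf3, 0.66 for Ythdc1 and 1.23 for Ythdc2 (adjusted p from 0.000769 to 0.0302), in a comparison where 48.1% of genes were called. Leaving out 1 library lost the call on Ythdf3 and on Ythdc1 in 4 of 6 fits each and on Ythdf1 in 2 of 6 (adjusted p up to 0.115, 0.0805 and 0.0728), and under the titles all 4 would be lower by the same amounts. Ythdf2 made up 80.1% ± 1.11 of the TPM of Ythdf1 to Ythdf3 in YTHDF2 libraries, against 66.9% ± 3.40 in IgG libraries and 71.1% ± 3.17 in inputs (SD, n = 3 each), and the YTHDF2 libraries did not overlap with the others. Under the titles the share of 71.1% would belong to the pull-down and that of 80.1% to the input.

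Of the machinery lists, 3 of 9 writers were higher in the YTHDF2 pull-down than in IgG, where 14.6% of all genes were called: Rbm15b (1.62, adjusted p = 0.00445), Virma (0.50, adjusted p = 0.0414) and Rbm15 (0.77, adjusted p = 0.0464). Rbm15 and Rbm15b encode adaptors that bring the methyltransferase to RNA. Of the RNase P/MRP route, 4 of 12 were higher, among them the subunits Rpp14 (1.34, adjusted p = 0.000298), Rpp38 (1.03, adjusted p = 0.00196) and Pop5 (0.69, adjusted p = 0.0132). No eraser, no other reader of 6 tested and no CCR4-NOT gene of 11 was called, in a fit that leaves out the pairing of libraries. The calls on Virma and Rbm15 were each lost in 5 of 6 fits that left out 1 library (adjusted p up to 0.188 and 0.176), and that on Pop5 in 2 of 6 (up to 0.0653). Ythdf2 had 1.60 here. Under the titles it would have 0.26, Pop5 1.04, Rpp14 0.81 and Rbm15b 0.62, so the order of these genes depends on which label is right.

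Set side by side, Ythdf2 in WT cells was at 121 ± 8.12 TPM in RNA-seq at 0 h, 77.7 ± 1.13 TPM in the m6A inputs and 40.0 ± 5.02 TPM in the inputs of the YTHDF2 series (SD, n = 3 each). These tables were normalized separately and the library methods differ, so no difference between them was tested. By mean normalized CPM within the RNA-seq table, the groups labelled cKO at 0, 4 and 2 h came first, followed by WT at 0, 2 and 4 h. Neighbours in that order whose libraries overlapped were cKO at 0 h with both later cKO groups, and WT at 2 h with WT at 4 h. The libraries labelled cKO at 4 h and 2 h did not overlap in normalized CPM but overlapped in TPM, and their difference was not called.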

How the data were processed

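Per the submitters' processing notes, reads were handled with bcl2fastq 2.17.1.14, Trimmomatic 0.32 and STAR 2.5.2a on GRCm38. How reads were counted, and on which annotation, is not given in the sources used here. The authors deposited a whole-number count and a TPM value per gene symbol and library. SMART-seq2 libraries were made for RNA-seq and modified SMART-seq3 libraries for the pull-downs, per the labels' protocols.

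Deposited counts were fitted per assay over all its libraries with edgeR 4.0.16 in R 4.3.3 (TMM, filterByExpr, quasi-likelihood tests), leaving 12, 4 and 6 residual degrees of freedom. The tests are two-sided with Benjamini-Hochberg adjustment over all genes tested and a threshold of 0.05. SE is the log2 change over the square root of F. Coordinates and sequence came from RefSeq (GRCm38.p6), where 24588 of 26621 symbols matched a symbol or synonym. The steps were tested on simulated data.

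Ythdf2, the gene lists and the tests were chosen with earlier results of these data known. Named genes are Ythdf2, its 4 relatives, the nearest 4 tested genes on each side, the 6 most and 3 least alike (log2 CPM with a prior count of 2), and the called members of each machinery list with the 3 smallest p-values in a comparison. Groups of the YTHDF2 series follow the sample descriptions, since titles and descriptions name its YTHDF2 and input libraries the other way round.

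Replicate numbers were taken to pair libraries where every pair of same-numbered libraries had residuals correlated over 0.1. This held across times within a label (18 of 18 pairs) and in the YTHDF2 series (9 of 9), and not in the m6A series (2 of 3) or between labels (0 of 27). The main fits used no block, so their tests leave this pairing out. Fits with a block are given among the other settings. No pair of libraries was near-identical. Other settings tried were RLE factors, library size alone, DESeq2 1.42.0, a ribosomal protein reference (82 genes), no filter, limma 3.58.1 on TPM, replicate or culture blocks, the compared groups alone, titles for groups, and each library left out. Intervals of 95% come from the fits.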

Additional observations from a re-analysis of the deposited data

How the results depend on the processing

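Ythdf2 stayed called and higher in libraries labelled cKO under all 17 alternatives at each time (1.86 to 3.10 at 0 h, 3.83 to 4.17 at 2 h, 4.13 to 4.50 at 4 h), and stayed called and lower in WT at 2 h and 4 h against 0 h. For the other results, the cause of a change was not tested.

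With a ribosomal protein reference, Ythdf2 in libraries labelled cKO was -0.093 at 4 h against 2 h and -0.88 at 4 h against 0 h (then called), IgG against input was 0.085, and in the m6A pull-down Hnrnpc (0.62), Rpp30 (0.55) and Rpp21 (0.65) turned round. That reference moved the median of all genes most in the m6A pull-down, to 1.40. At 4 h against 0 h in libraries labelled cKO it moved the median to -0.65. On log2 TPM, IgG against input was 0.094 with a pseudocount of 1, with or without the filter at a mean TPM of 1, and 0.10 with 0.1. DESeq2 gave -0.31 there (adjusted p = 0.0482). With the culture as a replicate block, the label difference of the 0 to 4 h change was 1.79 and called, and no other call on Ythdf2 changed with a block.

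With groups from the sample titles, Ythdf2 was -1.34 for YTHDF2 against input, 0.26 and not called against IgG, and -1.60 for IgG against input. The relatives against input were -1.23 for Ythdc2, -0.82 for Ythdf1, -0.66 for Ythdc1 and -0.57 for Ythdf3, and against IgG Virma (row 1110037F02Rik) was -1.08, Rbm15 -0.58 and Rpp38 -0.043.

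Leaving out each library in turn gave -0.80 to 0.44 at 2 h against 0 h in libraries labelled cKO, -0.56 to 0.67 at 4 h against 0 h, and -0.27 to 0.057 at 4 h against 2 h in WT. The label difference of the change ranged from 0.91 to 2.14 over 0 to 2 h and from 1.22 to 2.45 over 0 to 4 h, and the m6A difference from 0.25 to 0.30. The highest of these label differences came without replicate 1 labelled cKO at 0 h. Leaving out replicate 1 labelled cKO at all 3 times, an alternative chosen after seeing the data, gave 0.48 and 0.66 for 2 h and 4 h against 0 h, and 2.18 and 2.44 for the label differences, both called.

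Of 898 alternative values for 53 called results on other named genes, 734 kept the call and direction, 154 lost the call and 10 turned round. Counts of all genes called, used here only as background, moved by over 1.5 times under some settings. In the m6A pull-down 2881 genes were called, against 12939 higher and 70 lower with the ribosomal protein reference. Against IgG 2087 were called, against 3134 higher and 1268 lower with the replicate block. For the 0 to 4 h label difference 3 were called, against 199 higher and 97 lower with the culture block and 60 higher and 29 lower with DESeq2. Depth was no limit for Ythdf2, with at least 633 reads per library, but levels are relative within a library.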
